A study of Oryza sativa with 9 samples.

Results

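Leaves of rice seedlings sprayed with paclobutrazol before submergence (PBT) were compared with leaves of seedlings sprayed with solvent alone (Control). The comparison covered every entry of the deposited expression table whose mean over all 9 libraries of the series reached 0.5 FPKM, which was 22946 of 38652 entries. FPKM is a count of sequenced fragments scaled to transcript length and to the fragments mapped in the library, and an entry is 1 gene model or assembled transcript unit of the table. Entries that share a locus name were kept apart, and lists defined by locus take the most abundant of them. Of the entries tested, 19792 carried a rice locus name and 3154 carried none. The digits behind Os in a locus name give the chromosome. A functional description was attached to 9672 of the tested entries (42.2%), Gene Ontology (GO) terms to 6307 (27.5%) and a KEGG pathway to 2421 (10.6%), so that functions are described for the annotated share only.

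Both groups were leaves of IR64, an indica variety that is intolerant of submergence and lacks the Sub1A gene, grown in soil-filled pots in a greenhouse. The PBT seedlings received 25 mL of paclobutrazol at 200 mg/L when they were 20 days old. By the methods of the study, it was first dissolved in ethanol and then diluted with water. The control seedlings received 25 mL of the solvent at 0.1%, which the sample labels name as ethanol and the methods of the study as methanol. If it was methanol, the solvent differed between the groups, and its effect cannot be told apart from that of paclobutrazol. All seedlings were put completely under 100 cm of water 2 days later and sampled after 4 days under water. Each group had 3 libraries, described as biological triplicates with no record of which pots they came from, so the p-values below measure the spread between these libraries. A further group sprayed with gibberellin at 100 mg/L (GAT, 3 libraries) entered the estimate of that spread and the mean that set which entries were tested. As a result 299 tested entries, 1 of them a chlorophyll a/b-binding protein, were listed at 0 in all PBT and control libraries and stay in the shares below. Every library came from submerged seedlings of 1 variety harvested at 1 time, and each regulator was sprayed at 1 dose.

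Paclobutrazol is a triazole growth retardant that blocks the oxidation of ent-kaurene, an early step of gibberellin synthesis carried out by a cytochrome P450, and at higher doses it can also affect other P450 enzymes. Gibberellins drive elongation of the shoot: the hormone binds a soluble receptor of the GID1 type, and the bound receptor leads to the destruction of growth-repressing DELLA proteins of the GRAS family. In a submerged rice plant, ethylene accumulates in the tissue, and gibberellin action then sets how much reserve carbohydrate is spent on growing towards the water surface. Oxygen shortage moves respiration towards ethanol fermentation, and shading and leaf ageing lower photosynthesis.

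The 3 PBT libraries correlated with each other at r = 0.885 to 0.894 on the log2(FPKM + 1) scale over the 22946 tested entries, the 3 control libraries at 0.874 to 0.883, and PBT with control libraries at 0.841 to 0.859. Total FPKM was 441571 to 452383 in the PBT libraries and 463953 to 471799.9 in the control libraries, and the 10 most abundant entries held 8.34 to 8.49% and 9.91 to 10.3% of it. Transcripts of green leaf tissue were abundant in every library: the entry for the small chain of Rubisco LOC_Os12g17600 was the most abundant of those tested, and the chlorophyll a/b-binding protein LOC_Os09g17740 was among the most abundant. A root silicon transporter locus, LOC_Os02g51110, was at 20.2 to 22.3 FPKM in PBT and 20.2 to 27.2 FPKM in control libraries, and of the shoot meristem loci looked up, LOC_Os07g03770 was listed at 0 in all of them and LOC_Os05g03884 was at most 0.384 FPKM. In 283 entries, 1 library of either group was listed at 0 while the other 2 of that group exceeded 10 FPKM, so a listed 0 can be a failed estimate and is given below as listed.

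With limma on log2(FPKM + 1), 996 entries (4.34%) were differentially expressed genes (DEGs) in PBT/Control, that is, they passed an adjusted p of 0.05 (Benjamini-Hochberg) and changed by 1 or more on the log2 scale. Without the limit on the change, 6.37% passed the adjusted p (3.9% higher and 2.47% lower in PBT), and 19.8% had an unadjusted p under 0.05. Upregulation in PBT was found for 659 entries (2.87%) and downregulation for 337 (1.47%). With a single 0 treated as missing these counts were 905 and 581, and among entries reaching a mean of 5 FPKM they were 498 and 183. The median log2 fold change over all tested entries was -0.04, over the upregulated entries 1.56 and over the downregulated entries -1.57. Fold changes on this scale understate the change of entries with a low FPKM. A log2 change of at least 3 in size was seen for 22 upregulated and 17 downregulated entries. The upregulated entries were the more abundant, with 472 of 659 at a mean of at least 5 FPKM, against 169 of 337 downregulated entries. All 996 DEGs had PBT libraries entirely above or entirely below the control libraries, which was so for 26.3% of all tested entries (12.9% above and 13.4% below). The most abundant downregulated entry, LOC_Os08g01380, carries no description and is named after its values were seen; it had 1733 ± 51.7 FPKM in PBT and 3733 ± 64.4 FPKM in Control (SD, n = 3 each; log2 fold change -1.11, adjusted p = 3.91e-05). A group was listed at 0 in every library for 62 upregulated entries (Control) and 74 downregulated entries (PBT). When each of the 9 libraries was left out in turn, 374 of the upregulated and 156 of the downregulated entries were called in every fit. A call could be lost through the adjusted p or through the limit on the change. In whole leaves, fewer cells of a type and less RNA per cell cannot be told apart.

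**Figure D1:**
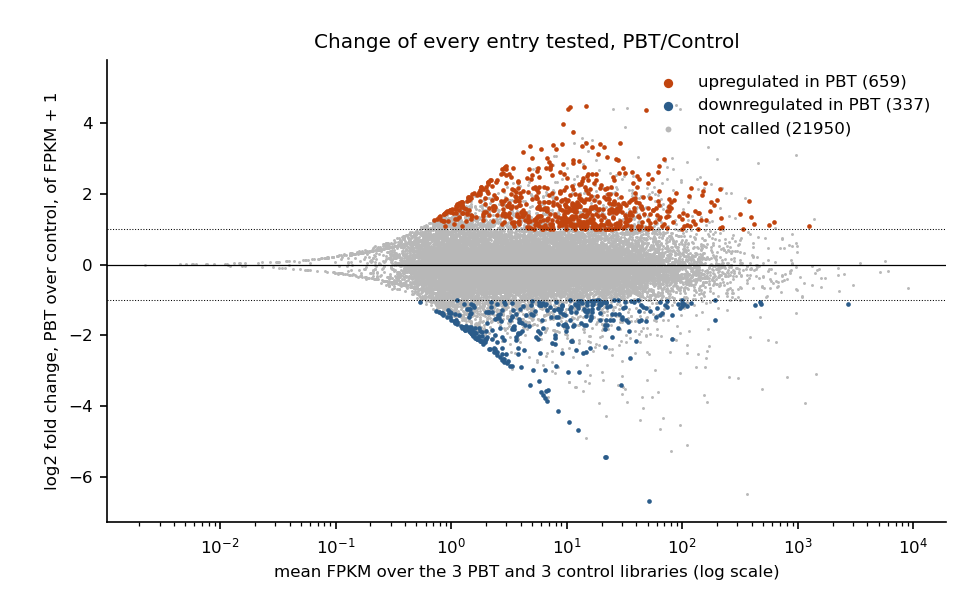
Log2 fold change of FPKM + 1 in PBT over Control (vertical axis) against the mean FPKM of the 6 libraries on a log scale (horizontal axis), 1 point per tested entry; 299 entries listed at 0 in all 6 libraries are not drawn. The 659 upregulated entries (orange) lie above the upper dotted line at a log2 change of 1, the 337 downregulated entries (blue) below the lower one, and the cloud of uncalled entries (grey) is centred close to 0.

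Transcripts of gibberellin synthesis, inactivation and perception were looked at first, since paclobutrazol acts on this pathway, and no list entry for synthesis or inactivation was a DEG. By limma, 0 of the 7 tested loci of the gibberellin synthesis list and 0 of the 8 of the inactivation list were DEGs, with all libraries and with any left out, and none passed the adjusted p of 0.05 with all libraries. At an unadjusted p under 0.05, which 19.8% of all tested entries had, 1 synthesis locus was lower and 2 inactivation loci were higher. The median log2 fold changes were 0.22 and 0.24. SD-1 (LOC_Os01g66100), a gibberellin 20-oxidase that catalyses a late step of synthesis, had 13.8, 12.2 and 7.51 FPKM in PBT, against 8.49, 7.795 and 2.75 FPKM in Control, and the groups overlapped (log2 fold change 0.80, SE 0.36, adjusted p = 0.267). The entry described as gibberellin 20 oxidase 2 (LOC_Os05g34854) had 1.41, 0.888 and 1.25 FPKM in PBT, against 2.39, 3.23 and 2.64 FPKM in Control; the PBT libraries were all lower, but the test was not passed (log2 fold change -0.78, SE 0.29, adjusted p = 0.174). LOC_Os03g63970, described as gibberellin 20 oxidase 1, was low in both groups, with 0.231 to 1.301 FPKM in PBT and 0.663 to 3.12 FPKM in control libraries. The other 4 loci of the synthesis list carry no description in the table (LOC_Os02g17780, LOC_Os04g52230, LOC_Os06g37364 and LOC_Os06g02019) and had log2 fold changes between -0.13 and 0.87. The highest of these, LOC_Os06g02019, was above the controls in every PBT library with an adjusted p of 0.322. Of 265 loci on the lists defined by locus or picked by the rules for naming genes, 15 have a further tested entry that the lists leave out. Of these 17 entries 1 was a DEG. It is a second, low entry of LOC_Os06g37364, with 1.31, 1.01 and 0.315 FPKM in PBT against 4.55, 2.76 and 3.67 FPKM in Control (log2 fold change -1.33, SE 0.28, adjusted p = 0.0279), a call lost without Control replicate 1 or 3 or PBT replicate 2 or 3.

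Gibberellin 2-beta-dioxygenases inactivate the hormone. The most changed of them, LOC_Os05g11810, had 17.2, 27.04 and 13.3 FPKM in PBT, against 11.2, 4.103 and 10.6 FPKM in Control. All PBT libraries were above all control libraries, but the spread was wide (log2 fold change 1.11, SE 0.40, adjusted p = 0.168). LOC_Os01g11150, described as gibberellin 2-beta-dioxygenase, had 2.54, 2.19 and 5.85 FPKM in PBT, against 1.49, 1.14 and 1.25 FPKM in Control, likewise without overlap and short of the test (adjusted p = 0.187). The other 6 loci of this list overlapped between the groups, with log2 fold changes between -0.26 and 0.56.

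The perception list held 5 tested loci, with a median of 0.45. The entry described as gibberellin receptor GID1L2 (LOC_Os05g33730) had 93.8, 102 and 92.8 FPKM in PBT, against 54.6, 49.1 and 46.8 FPKM in Control. The groups did not overlap, yet the 9-library test gave a log2 fold change of 0.93 (SE 0.68) and an adjusted p of 0.533, with GAT libraries at 100.3, 11.5 and 91.6 FPKM entering the spread. On the 6 PBT and control libraries alone the adjusted p was 0.00689. LOC_Os03g49990, a GRAS family transcription factor, had 29.5, 37.7 and 37.8 FPKM in PBT, against 52.9, 55.7 and 49.2 FPKM in Control. It was lower in PBT without overlap and below the adjusted p of 0.05, but short of the fold limit (log2 fold change -0.58, SE 0.14, adjusted p = 0.0450). A second GRAS entry of the list, LOC_Os01g45860, had 4.001, 2.01 and 0 FPKM in PBT, against 0.294, 0 and 0 FPKM in Control (adjusted p = 0.293), and it became a DEG when PBT replicate 3 was left out. LOC_Os02g36974, described as a 14-3-3 protein, had a log2 fold change of -0.31 and LOC_Os01g59660, without a description, one of 0.45, both with overlapping groups.

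Of the 9 tested regulators named for submergence responses, 1 was a DEG. CIPK15 (LOC_Os11g02240), a protein kinase that links oxygen deficiency to sugar signalling in germinating rice, had 87.5, 77.3 and 74.4 FPKM in PBT, against 54.1, 49.1 and 51.7 FPKM in Control. It was higher in all PBT libraries (log2 fold change 0.61, SE 0.11, adjusted p = 0.0117), below the fold limit. MPK3 (LOC_Os03g17700), a mitogen-activated protein kinase, had 114, 123 and 117 FPKM in PBT, against 80.6, 72.7 and 84.1 FPKM in Control, also without overlap but with an adjusted p of 0.128. The DEG was the AP2 domain gene LOC_Os07g47790, which had 3.57, 3.67 and 6.05 FPKM in PBT, against 0.836, 0.618 and 0 FPKM in Control (log2 fold change 1.89, SE 0.35, adjusted p = 0.0147). Its levels were low, and its call was lost without PBT replicate 3 (adjusted p = 0.0541). EATB (LOC_Os09g28440), an ethylene response factor associated with internode elongation, had 42.8, 0 and 55.6 FPKM in PBT, against 43.2, 36.4 and 39.99 FPKM in Control; with 1 PBT library listed at 0, no difference can be read from it (adjusted p = 0.564). LOC_Os09g11460 and LOC_Os09g11480, a pair of neighbouring AP2 domain genes, had log2 fold changes of -0.77 and -0.50 with adjusted p of 0.190 and 0.689. LOC_Os05g45420, LOC_Os01g34060 and LOC_Os09g20390, which carry no description, had adjusted p of 0.336, 0.942 and 0.335.

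In the fermentation and hemoglobin list 1 of 7 tested loci was a DEG and the median was -0.29. Pyruvate decarboxylase isozyme 2 (LOC_Os03g18220), which feeds the ethanol pathway, had 38.2, 39.5 and 39.7 FPKM in PBT, against 55.6, 59.6 and 48.6 FPKM in Control. It was lower in PBT without overlap (log2 fold change -0.47, SE 0.11, adjusted p = 0.0469), within the fold limit. ALDH2a (LOC_Os02g49720), an aldehyde dehydrogenase that detoxifies acetaldehyde, had 5.103, 4.74 and 5.26 FPKM in PBT, against 7.299, 5.58 and 6.38 FPKM in Control (adjusted p = 0.661). LOC_Os11g10510, a locus of the list that carries no description in the table, had 69.3, 70.8 and 76.02 FPKM in PBT, against 56.9, 50.9 and 45.99 FPKM in Control (adjusted p = 0.347). The DEG was LOC_Os03g12510, entered among the hemoglobin loci of the list and without a description in the table, which had 0.393, 1.85 and 1.64 FPKM in PBT, against 15.4, 17.1 and 12.4 FPKM in Control. All control libraries lay far above all PBT libraries (log2 fold change -2.86, SE 0.28, adjusted p = 0.000851), and the call held with any library left out.

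**Figure D2:**
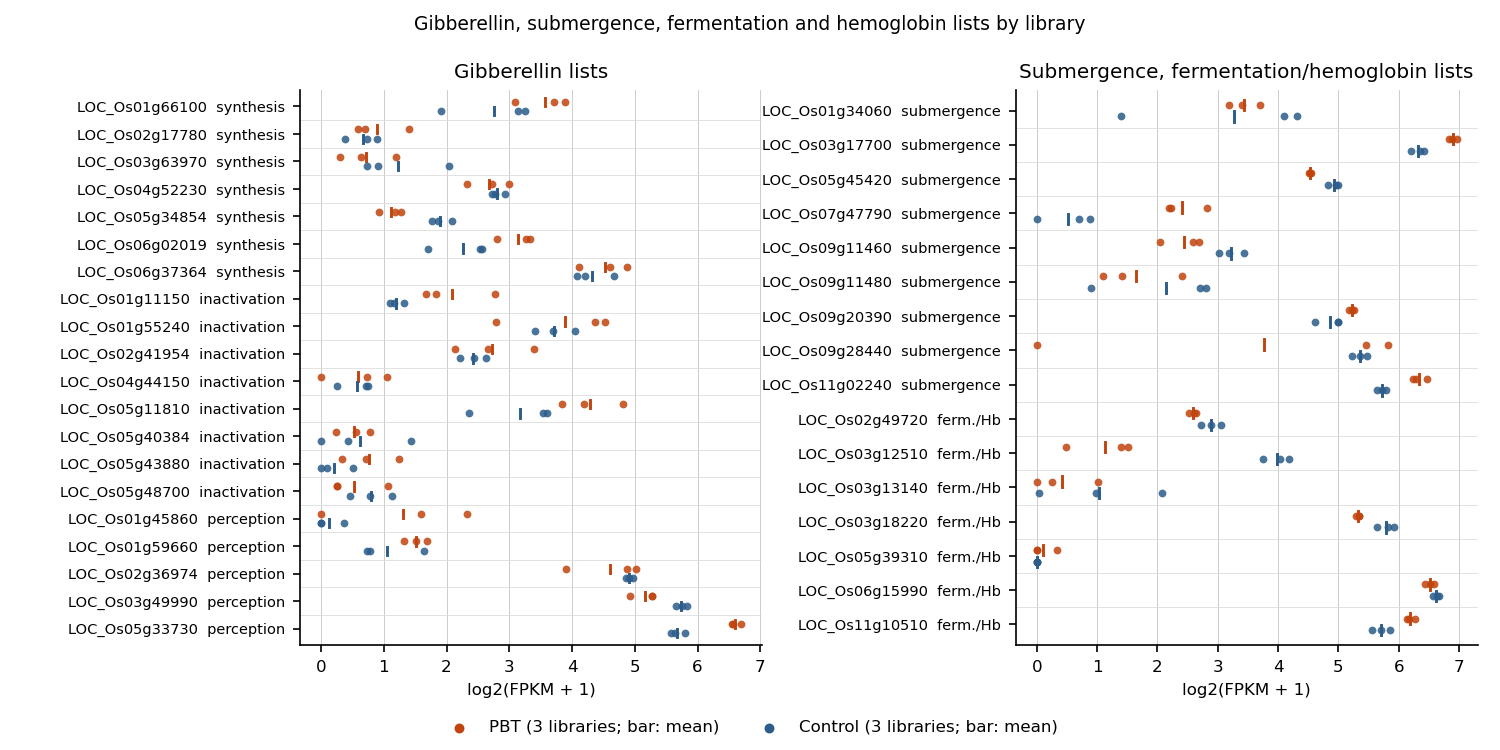
Expression of the tested loci of the gibberellin lists (left) and of the submergence regulator list and the fermentation and hemoglobin list (ferm./Hb, right) as log2(FPKM + 1) on the horizontal axis, 1 point per library and a bar at the mean, with PBT (orange) above Control (blue) in each row. Most rows overlap or lie close together, while LOC_Os07g47790 is higher and LOC_Os03g12510 lower in every PBT library.

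The 12 leading upregulated genes included regulators, defence proteins and enzymes. A dehydration-responsive element-binding protein (LOC_Os01g73770), a transcription factor of the AP2 class whose relatives switch on cold and drought genes, had 29.8, 28.97 and 28.2 FPKM in PBT, against 0.371, 0 and 0.728 FPKM in Control. All PBT libraries were close to each other and far above the controls (log2 fold change 4.49, SE 0.34, adjusted p = 0.000213). A thaumatin (LOC_Os12g43390), of a family of secreted antifungal proteins, had 87.9, 102 and 89.5 FPKM in PBT, against 5.595, 2.599 and 2.78 FPKM in Control, the second largest change of the 12 leading upregulated genes (log2 fold change 4.39, SE 0.25, adjusted p = 7.00e-05). The calmodulin-related calcium sensor OsCML21 (LOC_Os05g24780) had 22.5, 21.3 and 19.99 FPKM in PBT, against 0, 0 and 3.57 FPKM in Control (log2 fold change 3.74, SE 0.53, adjusted p = 0.00436). In that gene a pair of control libraries was listed at 0 and the other reached 3.57 FPKM, still well below PBT. The AP2 domain gene LOC_Os02g52670 had 51.1, 47.6 and 60.8 FPKM in PBT, against 5.08, 4.53 and 2.57 FPKM in Control (log2 fold change 3.45, SE 0.30, adjusted p = 0.000401). A Ser/Thr protein phosphatase (LOC_Os11g15570) had 33.3, 23.6 and 26.1 FPKM in PBT, against 2.11, 1.45 and 1.36 FPKM in Control (log2 fold change 3.44, SE 0.20, adjusted p = 8.23e-05). Both kept a wide gap between the groups.

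Further leading genes were metabolic enzymes and carriers. The chloroplast lipoxygenase LOC_Os08g39850, an enzyme that starts oxylipin synthesis by adding oxygen to linolenic acid, had 34.02, 42.5 and 31.8 FPKM in PBT, against 4.24, 2.18 and 1.499 FPKM in Control (log2 fold change 3.41, SE 0.27, adjusted p = 0.000231). A pair of cytochrome P450 genes followed: LOC_Os12g39310 had 14.4, 20.9 and 16.2 FPKM in PBT, against 1.94, 0.555 and 0.0754 FPKM in Control, and LOC_Os07g44140, described as cytochrome P450 72A1, had 8.303, 14.1 and 16.1 FPKM in PBT, against 0.229, 0.686 and 1.13 FPKM in Control. Their log2 fold changes were 3.40 and 3.03 with adjusted p of 0.000956 and 0.00130. In these 3 genes no control library came near a PBT library. A dehydration stress-induced protein (LOC_Os10g21790) had 26.8, 25.9 and 23.6 FPKM in PBT, against 1.98, 1.03 and 1.79 FPKM in Control (log2 fold change 3.36, SE 0.21, adjusted p = 0.000101). The nearby loci LOC_Os07g33954 and LOC_Os07g34006 are both described as transporter family proteins. LOC_Os07g33954 had 32.2, 32.3 and 27.6 FPKM in PBT, against 1.91, 1.52 and 3.12 FPKM in Control, and LOC_Os07g34006 had 42.8, 27.3 and 31.4 FPKM in PBT, against 3.28, 1.65 and 4.39 FPKM in Control. They shifted by similar amounts (log2 fold changes 3.34 and 3.12), and how fragments matching both were divided is not given in the sources used here. A further entry of LOC_Os07g33954 had 31.3, 28.7 and 28.1 FPKM in PBT against 32.9, 30.98 and 38.9 FPKM in Control (log2 fold change -0.21, adjusted p = 0.454). The disease resistance gene LOC_Os11g10770 had 56.3, 13.4 and 49.97 FPKM in PBT, against 2.88, 1.96 and 2.66 FPKM in Control, and its call (log2 fold change 3.32, SE 0.67, adjusted p = 0.0226) was lost without PBT replicate 1 or 3 or Control replicate 1, 2 or 3 (adjusted p = 0.0735 to 0.0930); the other 11 leading upregulated genes were called whichever library was left out.

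Among downregulated genes, 6 of the 12 leading ones were listed at 0 in every PBT library, so no fold is given for them. A core histone gene (LOC_Os10g39410), which encodes a protein of the nucleosome, was listed at 0 in all 3 PBT libraries, against 100.2, 101 and 106 FPKM in Control (adjusted p = 9.91e-07). The 3 control libraries were almost equal, and the GAT libraries were listed at 0 as well. No other of the 35 tested core histone entries was a DEG, and their summed FPKM was 1142 to 1722 in PBT and 1568 to 1634 in control libraries. An entry described as 1-aminocyclopropane-1-carboxylate oxidase homolog 1 (LOC_Os03g64280) was listed at 0 in all 3 PBT libraries, against 15.5, 13.1 and 12.02 FPKM in Control (adjusted p = 8.23e-05). A thionin-like peptide (LOC_Os07g25050), of a family of small antimicrobial peptides, was listed at 0 in all 3 PBT libraries, against 21.3, 14.4 and 3.97 FPKM in Control (adjusted p = 0.00582), and the lectin-like receptor kinase 7 (LOC_Os03g56160) was listed at 0 in all 3 PBT libraries, against 7.69, 12.1 and 9.302 FPKM in Control (adjusted p = 0.000467). The thionin-like gene had the widest spread among its control libraries. The EF hand protein LOC_Os01g57470 was listed at 0 in all 3 PBT libraries, against 4.68, 8.47 and 4.98 FPKM in Control, but its call was lost without PBT replicate 1, 2 or 3 or Control replicate 1, 2 or 3 (adjusted p = 0.0559 to 0.0807). The same held for the wound/stress protein LOC_Os06g11812, with 2.63 to 8.27 FPKM in control libraries and 0 in PBT libraries, which was lost without PBT replicate 1, 2 or 3, GAT replicate 2 or Control replicate 1, 2 or 3 (adjusted p = 0.0530 to 0.138).

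The remaining leading downregulated genes kept a measurable level in PBT. A resistance protein (LOC_Os08g42700) had 0.357, 0.288 and 0.0464 FPKM in PBT, against 11.8, 13.5 and 15.1 FPKM in Control (log2 fold change -3.56, SE 0.22, adjusted p = 0.000101). RSH4 (LOC_Os05g06920), a RelA-SpoT like protein of the family that makes the alarmone ppGpp in chloroplasts, had 1.16, 1.79 and 1.38 FPKM in PBT, against 20.1, 18.7 and 18.4 FPKM in Control (log2 fold change -3.04, SE 0.20, adjusted p = 0.000127). Both had tight libraries on either side and no overlap. The cytochrome P450 LOC_Os01g63930 had 0, 1.300 and 0.880 FPKM in PBT, against 14.7, 14.5 and 7.54 FPKM in Control (log2 fold change -2.97, SE 0.35, adjusted p = 0.00181). An anthocyanidin 3-O-glucosyltransferase (LOC_Os06g18670), which attaches sugar to flavonoid pigments, had 4.03, 3.01 and 3.33 FPKM in PBT, against 25.4, 20.4 and 26.95 FPKM in Control (log2 fold change -2.50, SE 0.26, adjusted p = 0.000997). A respiratory burst oxidase (LOC_Os12g35610), an NADPH oxidase that produces superoxide outside the cell, had 2.26, 1.65 and 2.24 FPKM in PBT, against 15.3, 15.9 and 16.9 FPKM in Control (log2 fold change -2.49, SE 0.23, adjusted p = 0.000507). In each of these genes every PBT library was below every control library. The isoflavone reductase LOC_Os01g01660 had 7.37, 1.94 and 5.19 FPKM in PBT, against 23.5, 22.5 and 34.99 FPKM in Control (log2 fold change -2.36, SE 0.51, adjusted p = 0.0303), a call lost without PBT replicate 2 or 3, GAT replicate 3 or Control replicate 1, 2 or 3 (adjusted p = 0.0501 to 0.116).

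**Figure D3:**
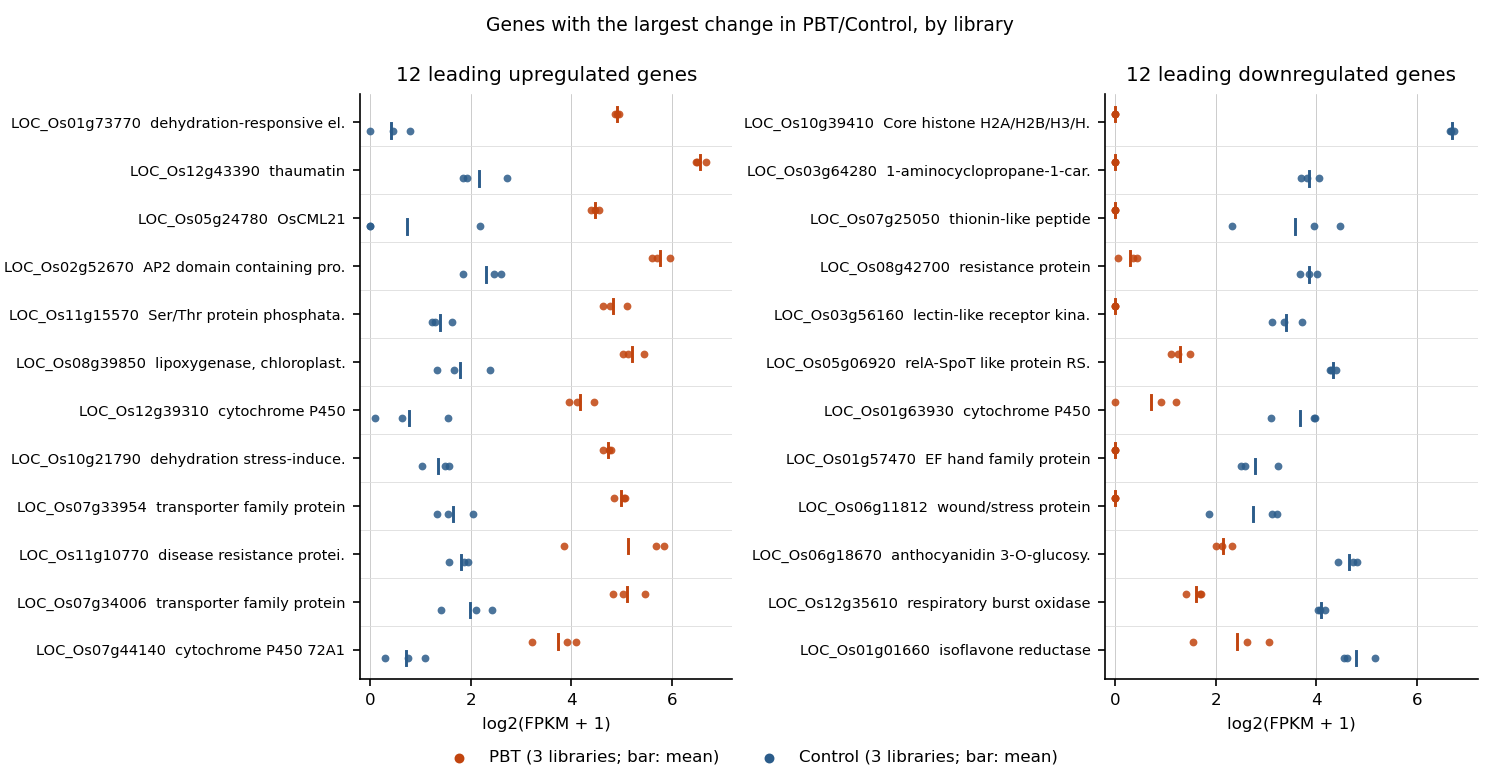
The 12 upregulated (left) and 12 downregulated genes (right) with the largest log2 fold change in PBT/Control among described genes, as log2(FPKM + 1) on the horizontal axis, 1 point per library and a bar at the mean, with PBT (orange) above Control (blue). In every row the 3 PBT points lie on 1 side of the 3 control points; LOC_Os11g10770 has 1 PBT library at 13.4 FPKM well below the other 2.

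Transcripts of the light-harvesting antenna were lower in PBT leaves for 5 of 12 entries at an adjusted p under 0.05. Chlorophyll a/b-binding proteins hold the pigments that collect light for the photosystems, and their 12 tested entries had a median log2 fold change of -0.84 (-0.56 after quantile normalization), beside -0.04 for all tested entries. Their summed FPKM was 5884 to 8602 in PBT libraries and 12373 to 13317 in control libraries. LOC_Os04g38410 had 280.2, 278 and 244 FPKM in PBT, against 598, 591 and 574 FPKM in Control (log2 fold change -1.14, SE 0.09, adjusted p = 0.000228), and LOC_Os01g64960 had 293, 309 and 315 FPKM in PBT, against 623, 641 and 630.4 FPKM in Control (log2 fold change -1.05, SE 0.08, adjusted p = 0.000193). These were the 2 DEGs of the list (16.7%, against 1.47% of all entries), both called with any library left out, and each group was tight. A further 3 entries, picked here after their values were seen, passed the adjusted p of 0.05 below the fold limit. The most abundant, LOC_Os09g17740, had 1651, 1753 and 1639.9 FPKM in PBT, against 2828, 2858 and 2786 FPKM in Control (log2 fold change -0.75, SE 0.06, adjusted p = 0.000214). LOC_Os03g39610 and LOC_Os07g38960 were lower by log2 fold changes of -0.93 and -0.35 (adjusted p = 0.000120 and 0.0160). Some of the other entries varied widely between PBT libraries. LOC_Os07g37240 had 179.7, 24.8 and 672 FPKM in PBT, against 1365, 1290.3 and 1319.6 FPKM in Control, every PBT library being lower, but the adjusted p was 0.0943. LOC_Os01g41710 had 1059.6, 0 and 1099 FPKM in PBT, against 1709, 1542 and 1553 FPKM in Control, with 1 listed zero (adjusted p = 0.412). In all, 9 of the 12 entries lay entirely below the controls and 0 entirely above, beside 13.4% and 12.9% of all entries.

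The main small-chain transcript of Rubisco, the carbon-fixing enzyme, was lower as well. LOC_Os12g17600, the most abundant of all tested entries and likewise picked after its values were seen, had 6639, 7046 and 6949.9 FPKM in PBT, against 11298, 10727 and 10827 FPKM in Control, a drop of less than the fold limit but much larger than the spread (log2 fold change -0.67, SE 0.05, adjusted p = 0.000127). The 3 small-chain entries summed to 8655 to 9091 FPKM in PBT and 13141 to 13842 FPKM in control libraries. A further, low entry of LOC_Os12g17600, which the lists leave out, was a DEG. It had 0.906, 0.193 and 2.12 FPKM in PBT, against 8.54, 3.94 and 4.83 FPKM in Control (log2 fold change -1.76, SE 0.42, adjusted p = 0.0450). With 1 library left out at a time, this call was kept only without PBT replicate 3 (adjusted p = 0.0377). Of the 19 tested Calvin cycle entries 3 were lower at an adjusted p under 0.05 without reaching the fold limit, and the list median was -0.35. Among these was the transketolase LOC_Os12g42230, which had 27.8, 30.3 and 29.1 FPKM in PBT, against 58.5, 46.3 and 55.4 FPKM in Control (log2 fold change -0.85, adjusted p = 0.00780). A low-abundance transketolase, LOC_Os07g09190, was the single DEG of the list and was upregulated (log2 fold change 1.54, SE 0.28, adjusted p = 0.0147), but its call was lost without PBT replicate 2 or 3 (adjusted p = 0.0537 to 0.0543).

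Of 68 photosystem and electron transport entries, 3 were upregulated and 1 downregulated (4.41% and 1.47%, beside 2.87% and 1.47% of all entries). The median was -0.09. The photosystem II 10 kDa polypeptide gene LOC_Os07g05360, the most abundant upregulated entry, had 1710.4, 1691 and 1711 FPKM in PBT, against 795, 822 and 775 FPKM in Control. Its libraries were close to each other within each group (log2 fold change 1.10, SE 0.06, adjusted p = 5.41e-05). A plastocyanin-like gene (LOC_Os08g04340), of the blue copper protein family, had 168, 169.7 and 146 FPKM in PBT, against 64.7, 56.6 and 57.9 FPKM in Control (log2 fold change 1.42, SE 0.15, adjusted p = 0.00119). It entered the list by the word plastocyanin in its description, and a role in photosynthesis was not tested. A lumenal PsbP gene (LOC_Os01g70820), related to the oxygen-evolving complex, had 56.3, 48.3 and 43.8 FPKM in PBT, against 18.1, 10.2 and 17.1 FPKM in Control (log2 fold change 1.68, SE 0.28, adjusted p = 0.00960). These 3 calls held whichever library was left out. PSB28 of photosystem II (LOC_Os01g71190) had 131, 134 and 115 FPKM in PBT, against 246, 274 and 246 FPKM in Control (log2 fold change -1.01, SE 0.12, adjusted p = 0.00210), and its call was lost without PBT replicate 3 or Control replicate 2 (adjusted p = 0.00946 to 0.0103). The downregulated count of the list was 0 without PBT replicate 3 or Control replicate 2 and 2 without GAT replicate 1.

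Of the 12 tested loci of the chlorophyll synthesis list, 9 lay entirely below the controls and 0 above, beside 13.4% and 12.9% of all entries. Protochlorophyllide reductase A (PORA, LOC_Os04g58200), which carries out the light-dependent step of chlorophyll synthesis, had 9.81, 8.68 and 8.39 FPKM in PBT, against 43.7, 36.7 and 39.8 FPKM in Control. It was the 1 DEG of the list (8.33%), about the same in every library of a group (log2 fold change -2.04, SE 0.17, adjusted p = 0.000370), and was called with any library left out. Magnesium-chelatase (LOC_Os03g20700), which commits porphyrin to chlorophyll, had 81.8, 78.8 and 79.2 FPKM in PBT, against 127, 128 and 126 FPKM in Control (log2 fold change -0.66, SE 0.09, adjusted p = 0.00436). LOC_Os03g36540, without a description, shifted by the same size (log2 fold change -0.68, adjusted p = 0.0206). Both fell below the adjusted p of 0.05 but not to the fold limit, and are named after their values were seen. The list median was -0.62. By limma, 0 of the 6 loci of the chlorophyll breakdown list passed the adjusted p (median 0.27). At an unadjusted p under 0.05, which 19.8% of all entries had, 1 was higher and 1 lower.

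**Figure D4:**
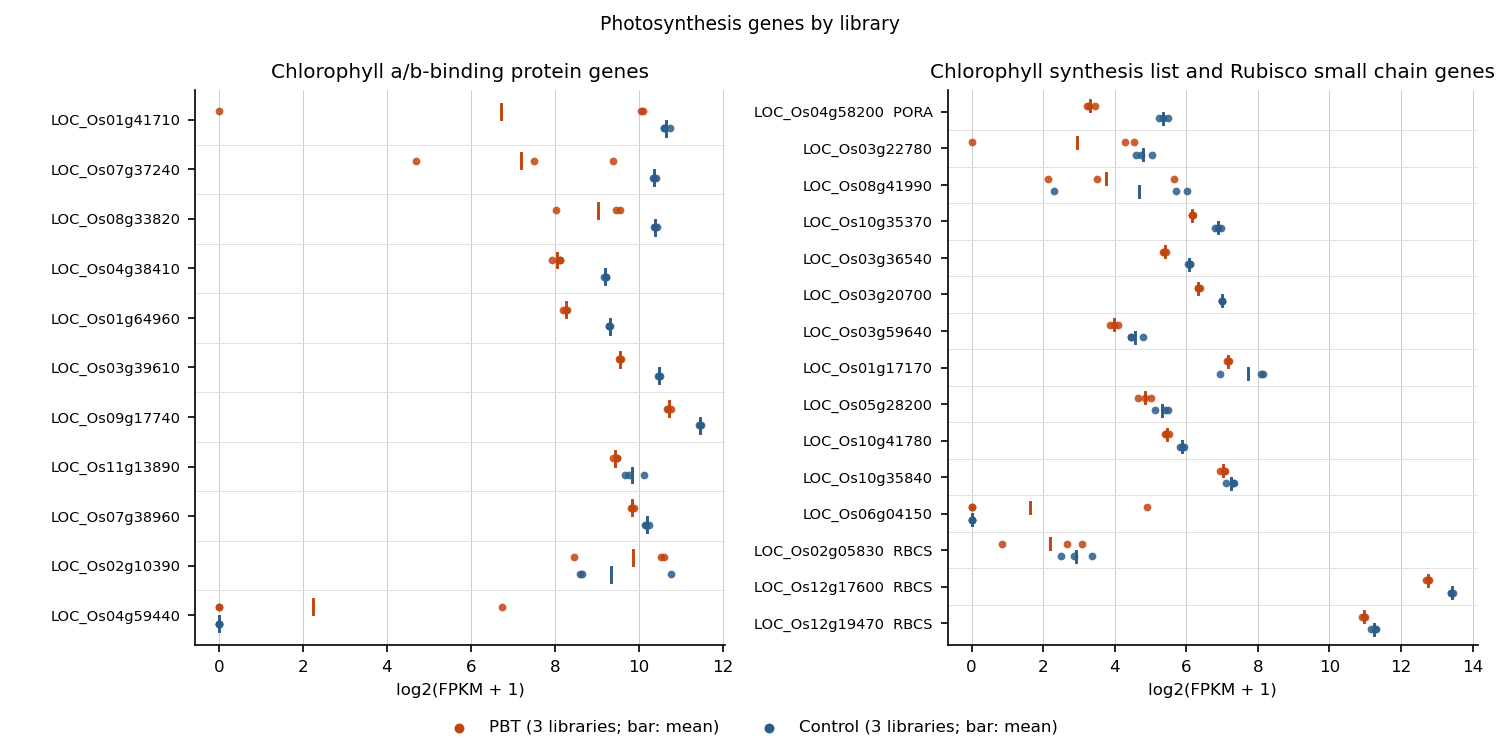
Expression of chlorophyll a/b-binding protein genes (left; 11 of 12 entries, the other being listed at 0 in all 6 libraries) and of the chlorophyll synthesis list with the Rubisco small-chain genes (right) as log2(FPKM + 1), 1 point per library and a bar at the mean, with PBT (orange) above Control (blue). In most rows the PBT points lie left of the control points, and single points at 0 are listed zeros.

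Among sugar and starch genes few entries were DEGs. Of 34 entries of the starch and sucrose metabolism list, 0 were called by limma, with a median of -0.03. At an unadjusted p under 0.05, which 19.8% of all entries had, 3 were higher and 2 lower. In this list 5 entries lay entirely above and 9 entirely below the controls, beside 12.9% and 13.4% of all entries. The KEGG pathway of the same name had 7 of 97 entries upregulated (7.22%) and 1 downregulated, or 2 without GAT replicate 1. Its upregulated members were 2 family 17 glycosyl hydrolases, 2 pectinesterases, 2 UDP-glucose 6-dehydrogenases and a family 31 glycosyl hydrolase. A glycosyl hydrolase of family 17 (LOC_Os01g51570), a family that holds the beta-1,3-glucanases, had 328, 351 and 362 FPKM in PBT, against 85.2, 74.7 and 73.2 FPKM in Control (log2 fold change 2.15, SE 0.10, adjusted p = 3.91e-05). LOC_Os04g33640 of the same family had 70.5, 68.1 and 53.6 FPKM in PBT, against 8.27, 10.00 and 10.5 FPKM in Control (log2 fold change 2.62, SE 0.20, adjusted p = 0.000208). In both, every PBT library was several-fold above every control library. The downregulated member was a periplasmic beta-glucosidase (LOC_Os03g53860), which had 34.01, 39.4 and 36.1 FPKM in PBT, against 99.7, 95.3 and 94.2 FPKM in Control (log2 fold change -1.38, SE 0.13, adjusted p = 0.000558). Glycolysis genes had a median of -0.32, with 1 of 38 upregulated (2.63%, beside 2.87% of all entries) and 3 lower within the fold limit. The upregulated one was a phosphoglycerate mutase (LOC_Os12g04120) whose call was lost without PBT replicate 2 or 3 or Control replicate 1 or 3 (adjusted p = 0.0650 to 0.0838). Of these 38, 30 had a log2 fold change below 0, 3 lay entirely above and 12 entirely below the controls, and 2 were higher and 13 lower at an unadjusted p under 0.05. The sugar transporter list had 1 of 10 upregulated (10%, beside 2.87% of all entries). This was a nodulin MtN3 family protein (LOC_Os03g22200), whose call was lost without PBT replicate 1 or 2, GAT replicate 1 or Control replicate 1, 2 or 3 (adjusted p = 0.0625 to 0.130).

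Several lipoxygenase and 12-oxophytodienoate reductase genes rose. Lipoxygenases oxygenate linolenic acid, and some 12-oxophytodienoate reductases carry the product onward to jasmonate. Whether the reductases named below do so was not tested. Of the 9 lipoxygenase and ZIM domain entries, 3 were upregulated (33.3%, against 2.87% of all entries), with a median of 1.21, and all 3 were lipoxygenases. The count was 5 without GAT replicate 1. LOC_Os08g39840, next to the leading LOC_Os08g39850 on the chromosome, had 63.8, 72.5 and 72.7 FPKM in PBT, against 15.1, 8.85 and 10.9 FPKM in Control (log2 fold change 2.51, SE 0.19, adjusted p = 0.000213). LOC_Os04g37430 had 82.3, 72.1 and 72.6 FPKM in PBT, against 28.2, 24.9 and 20.1 FPKM in Control (log2 fold change 1.61, SE 0.17, adjusted p = 0.00106). All 3 were called whichever library was left out, and in each the lowest PBT library was well above the highest control library. Of the 21 entries in KEGG alpha-linolenic acid metabolism, 5 were upregulated and 0 downregulated, or 1 without Control replicate 1. Besides the lipoxygenases these were 12-oxophytodienoate reductases: LOC_Os06g11290 had 5.21, 5.59 and 3.39 FPKM in PBT, against 1.25, 0.201 and 0.842 FPKM in Control (log2 fold change 1.73, SE 0.29, adjusted p = 0.00988), and LOC_Os06g11200 had 2.05, 2.605 and 2.15 FPKM in PBT, and was listed at 0 in all 3 control libraries, a call lost without PBT replicate 1, 2 or 3 or Control replicate 1, 2 or 3 (adjusted p = 0.0627 to 0.0952). Both ZIM domain genes, whose products repress jasmonate responses, were above the controls in every PBT library without passing the test. LOC_Os03g28940 had 338, 536 and 342 FPKM in PBT, against 115, 171 and 198 FPKM in Control (adjusted p = 0.0743), and LOC_Os10g25230 had 251, 237 and 222 FPKM in PBT, against 100.1, 113 and 92.7 FPKM in Control (adjusted p = 0.580, or 0.00531 on the 6 libraries alone). The lipoxygenase LOC_Os02g10120 lay below the controls in every PBT library (log2 fold change -0.79, adjusted p = 0.0972). By limma, 0 of the 9 entries of a separate list of jasmonate synthesis and perception were called (median 0.73). At an unadjusted p under 0.05, which 19.8% of all entries had, 1 was higher and 1 lower. Without GAT replicate 2 that list had 1 upregulated entry, and without Control replicate 1 it had 1 downregulated entry. The lowest log2 fold change of that list was -3.59, which was also the lowest in KEGG alpha-linolenic acid metabolism and among cytochrome P450 genes. This strong drop did not pass the adjusted p of 0.05 with all libraries. With a single 0 treated as missing, 1 entry of the jasmonate list was upregulated and 1 downregulated.

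Some genes of abscisic acid (ABA) synthesis rose. 9-cis-epoxycarotenoid dioxygenases (NCEDs) catalyse the step that commits carotenoids to ABA. The NCED entry LOC_Os07g05940 had 15.4, 15.7 and 18.8 FPKM in PBT, against 5.17, 5.39 and 4.63 FPKM in Control (log2 fold change 1.54, SE 0.24, adjusted p = 0.00622), and this call held with any library left out. A second NCED, LOC_Os12g24800, had 10.00, 9.86 and 6.81 FPKM in PBT, against 3.52, 0.745 and 2.99 FPKM in Control (log2 fold change 1.63, SE 0.37, adjusted p = 0.0374), but its call was lost without PBT replicate 1, 2 or 3, GAT replicate 1, 2 or 3 or Control replicate 2 or 3 (adjusted p = 0.0527 to 0.122). DSM2 (LOC_Os03g03370), a carotenoid hydroxylase upstream of ABA, had 24.8, 30.3 and 29.7 FPKM in PBT, against 15.5, 10.8 and 7.99 FPKM in Control (log2 fold change 1.27, SE 0.25, adjusted p = 0.0203), but its call was lost without PBT replicate 2 or 3 or Control replicate 2 or 3 (adjusted p = 0.0573 to 0.0767). NCED3 (LOC_Os03g44380) had 0, 11.7 and 12.8 FPKM in PBT, against 5.35, 2.02 and 1.66 FPKM in Control, and the fourth NCED, LOC_Os02g47510, had 127, 127 and 116 FPKM in PBT, against 0, 0 and 205 FPKM in Control; both hold listed zeros beside high values and neither passed the test (adjusted p = 0.781 and 0.211). The ABA list, which holds loci of ABA breakdown as well as synthesis, thus had 3 of 9 upregulated (33.3%), all named above. Its median was 0.60, with 8 entries above 0 and 1 below, so the median does not describe synthesis alone. The upregulated count was 1 without PBT replicate 2 or 3 or Control replicate 2. KEGG carotenoid biosynthesis, which holds the same 3 upregulated genes, had 3 of 15 upregulated and 1 downregulated, and its upregulated count moved as that of the list did. The downregulated one, the short chain dehydrogenase/reductase LOC_Os03g18740, had 5.47, 4.72 and 4.46 FPKM in PBT, against 23.1, 17.6 and 14.6 FPKM in Control (log2 fold change -1.70, SE 0.22, adjusted p = 0.00301).

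Some genes known to respond to drought and ABA rose as well. Dehydrins and abscisic stress-ripening proteins protect cell structures during water loss. Of 17 entries described as such or as late embryogenesis abundant proteins, 2 were upregulated (11.8%), both called with any library left out. The median of the 17 was 0.41. The neighbouring abscisic stress-ripening genes LOC_Os01g72900 and LOC_Os01g72910 moved together. LOC_Os01g72900 had 26.5, 40.3 and 43.4 FPKM in PBT, against 3.79, 10.2 and 9.18 FPKM in Control (log2 fold change 2.18, SE 0.33, adjusted p = 0.00605), and LOC_Os01g72910 had 18.3, 18.5 and 26.7 FPKM in PBT, against 4.42, 4.34 and 4.87 FPKM in Control (log2 fold change 1.98, SE 0.19, adjusted p = 0.000707). A dehydrin (LOC_Os03g45280), named after its values were seen, had 978, 1051 and 974 FPKM in PBT, against 703, 670.4 and 675 FPKM in Control, a small rise far larger than its spread (log2 fold change 0.55, SE 0.06, adjusted p = 0.00174). Another abscisic stress-ripening gene, LOC_Os01g73250, was lower by a log2 fold change of -0.50 (adjusted p = 0.0296). In the list of 6 dehydration-responsive element-binding genes, LOC_Os01g73770 was the only DEG. LOC_Os09g35030 had 484, 519.9 and 499 FPKM in PBT, against 288, 278 and 263 FPKM in Control (log2 fold change 0.86, adjusted p = 0.000851), higher within the fold limit, and its neighbour LOC_Os09g35010 had 0, 157 and 149 FPKM in PBT, against 211, 209 and 214 FPKM in Control (adjusted p = 0.407).

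In the ethylene list, 2 of 14 entries were upregulated (14.3%) and the median was 0.41. EIL2 (LOC_Os07g48630), an EIN3-like transcription factor that carries the ethylene signal to target genes, had 295, 301 and 298 FPKM in PBT, against 146, 138 and 140.4 FPKM in Control. The PBT libraries were all well above the controls with almost no spread (log2 fold change 1.07, SE 0.08, adjusted p = 0.000208), and the call held with any library left out. A 1-aminocyclopropane-1-carboxylate (ACC) oxidase (LOC_Os09g27820), which makes ethylene, had 8.72, 7.04 and 9.47 FPKM in PBT, against 5.400, 2.43 and 1.82 FPKM in Control (log2 fold change 1.24, SE 0.30, adjusted p = 0.0475), but its call was lost without PBT replicate 1, 2 or 3, GAT replicate 1, 2 or 3 or Control replicate 2 or 3 (adjusted p = 0.0727 to 0.145). The count of the list was 1 without PBT replicate 2 or 3, GAT replicate 1, 2 or 3 or Control replicate 2 or 3. ACO7 (LOC_Os01g39860), another ACC oxidase, had 5.58, 5.42 and 4.97 FPKM in PBT, against 1.48, 2.73 and 2.502 FPKM in Control, just under the fold limit (log2 fold change 0.99, SE 0.24, adjusted p = 0.0475). LOC_Os05g05680, a further ACC oxidase, had 48.2, 40.3 and 43.2 FPKM in PBT, against 17.8, 10.98 and 1.05 FPKM in Control without overlap, but its adjusted p was 0.247, or 0.175 on the 6 libraries alone. ACS1 (LOC_Os03g51740), an ACC synthase, and the ethylene receptor LOC_Os03g49500 were above the controls in every PBT library with log2 fold changes of 0.45 and 0.29, both short of the test (adjusted p = 0.430 and 0.316).

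Lists of other growth regulators held few DEGs. The brassinosteroid list had 0 DEGs of 11 by limma, or 1 upregulated without PBT replicate 1. In that list 2 were higher and 2 lower at an unadjusted p under 0.05, which 19.8% of all entries had, and its median was 0.01. SERK2 (LOC_Os04g38480), a co-receptor kinase, had 62.03, 51.7 and 52.7 FPKM in PBT, against 29.9, 34.6 and 30.6 FPKM in Control, higher within the fold limit (log2 fold change 0.79, adjusted p = 0.00634). Among 56 auxin response and transport entries, 1 was upregulated and 1 downregulated (1.79% each, beside 2.87% and 1.47% of all entries). Both were of the SAUR family of auxin-responsive genes. OsSAUR33 (LOC_Os08g35110) had 20.4, 16.3 and 21.2 FPKM in PBT, against 8.86, 6.61 and 10.03 FPKM in Control, and its call was lost without PBT replicate 1 or 3 or Control replicate 2 (adjusted p = 0.0336 to 0.0541). OsSAUR19 (LOC_Os04g45370) had 9.599, 7.001 and 7.76 FPKM in PBT, against 29.6, 21.1 and 22.1 FPKM in Control, and its call was lost without PBT replicate 2 or 3 (adjusted p = 0.0511 to 0.0557). Their log2 fold changes were 1.10 and -1.46, and the upregulated count of the list was 0 without PBT replicate 1 or 3 or Control replicate 2 and 2 without Control replicate 1. In the phytochrome and PIL list the bHLH gene LOC_Os07g05010 had 12.6, 14.7 and 13.4 FPKM in PBT, against 27.6, 34.1 and 28.1 FPKM in Control (log2 fold change -1.08, SE 0.14, adjusted p = 0.00268), the 1 DEG of 7, which fell short of the limits without Control replicate 2 (adjusted p = 0.00620).

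Several transcription factor families held more upregulated than downregulated members, as did all tested entries (2.87% upregulated and 1.47% downregulated). MYB factors led with 6 of 49 upregulated (12.2%) and 0 downregulated, 4 of them with any library left out, beside a median of 0.03. LOC_Os11g45740 had 47.5, 42.4 and 40.4 FPKM in PBT, against 6.82, 8.58 and 7.03 FPKM in Control (log2 fold change 2.39, SE 0.14, adjusted p = 8.07e-05). LOC_Os01g64360 had 225, 208 and 184 FPKM in PBT, against 82.2, 77.97 and 64.3 FPKM in Control (log2 fold change 1.45, SE 0.15, adjusted p = 0.000900), and LOC_Os02g42850 had 10.2, 8.58 and 9.51 FPKM in PBT, against 1.32, 2.96 and 0.443 FPKM in Control (log2 fold change 2.14, SE 0.35, adjusted p = 0.00884). Each of these was higher in every PBT library. Of 58 AP2/ERF genes 5 were upregulated (8.62%) and 0 downregulated, with a median of -0.05; the count of upregulated genes was 2 without PBT replicate 3 and 3 without PBT replicate 1 or 2 or Control replicate 2 or 3, and that of downregulated genes 1 without PBT replicate 2 or GAT replicate 1. Besides LOC_Os01g73770 and LOC_Os02g52670, which were kept in every fit, these included the ethylene-responsive gene LOC_Os04g41570, which had 149, 149.7 and 151 FPKM in PBT, against 63.02, 61.4 and 40.7 FPKM in Control and its call was lost without PBT replicate 1, 2 or 3 or Control replicate 2 or 3 (adjusted p = 0.0551 to 0.0751). A helix-loop-helix gene (LOC_Os01g56690) had 264, 271 and 254 FPKM in PBT, against 60.4, 46.1 and 49.5 FPKM in Control (log2 fold change 2.33, SE 0.13, adjusted p = 6.87e-05), the larger of 2 DEGs among 28 bHLH genes. The other, LOC_Os01g39330, was lost without PBT replicate 1, 2 or 3 or Control replicate 1, 2 or 3 (adjusted p = 0.0521 to 0.0928).

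WRKY factors, which regulate defence, had 3 of 40 upregulated and 1 downregulated (7.5% and 2.5%, beside 2.87% and 1.47% of all entries). Their median was 0.49. WRKY39 (LOC_Os02g16540) had 11.4, 9.599 and 7.49 FPKM in PBT, against 1.83, 2.42 and 1.91 FPKM in Control (log2 fold change 1.77, SE 0.26, adjusted p = 0.00494), and WRKY3 (LOC_Os03g55080) had 49.3, 50.1 and 51.9 FPKM in PBT, against 25.04, 20.1 and 15.4 FPKM in Control (log2 fold change 1.30, SE 0.17, adjusted p = 0.00321). Both stayed called whichever library was left out, and their groups did not overlap. WRKY49 (LOC_Os05g49100) was upregulated as well (log2 fold change 1.19) but its call was lost without PBT replicate 1, 2 or 3 or Control replicate 2 or 3 (adjusted p = 0.0554 to 0.0760). WRKY112 (LOC_Os09g09630) was listed at 0 in all 3 PBT libraries, against 1.799, 2.44 and 3.26 FPKM in Control, and was downregulated (adjusted p = 0.00630). Of 28 NAC genes 1 was upregulated (3.57%, beside 2.87% of all entries), LOC_Os04g43560, whose call was lost without PBT replicate 2 (adjusted p = 0.0502). Among 21 bZIP genes limma called 0, with all libraries and with any left out. At an unadjusted p under 0.05, which 19.8% of all entries had, 3 were higher and 1 lower. The 92 heat shock and chaperone genes had 2 upregulated and 2 downregulated (2.17% each), beside 2.87% and 1.47% of all entries, and a median of -0.16. Their upregulated count was 1 without PBT replicate 1, 2 or 3, GAT replicate 1 or Control replicate 2. Their downregulated count was 1 without Control replicate 2 or 3. The heat shock factor LOC_Os02g32590 had 39.8, 42.4 and 40.6 FPKM in PBT, against 16.3, 15.98 and 17.9 FPKM in Control (log2 fold change 1.24, SE 0.13, adjusted p = 0.000991), and the small heat shock protein LOC_Os06g14240 had 0, 0.0650 and 0 FPKM in PBT, against 2.09, 2.897 and 3.88 FPKM in Control (log2 fold change -1.93, SE 0.27, adjusted p = 0.00409).

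**Figure D5:**
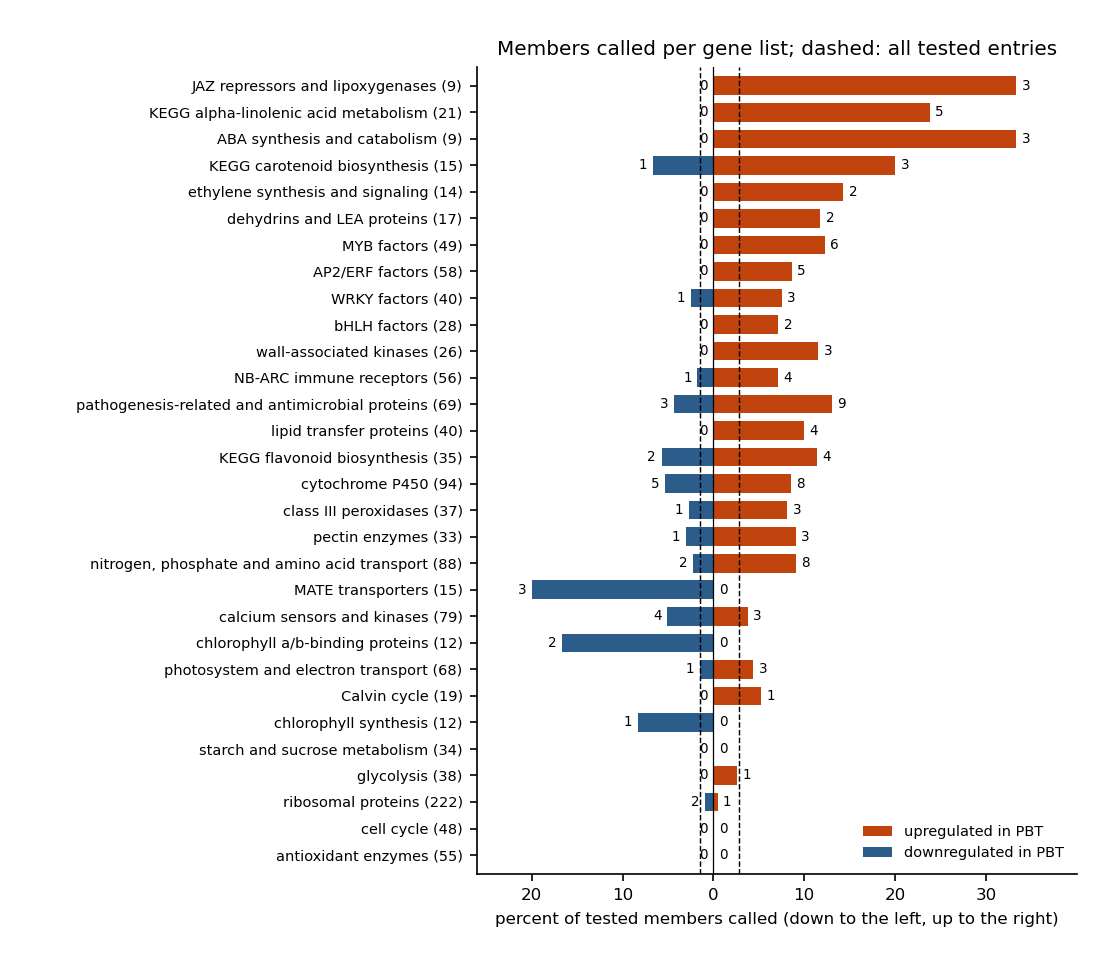
Percent of tested members called upregulated (orange, to the right) and downregulated (blue, to the left) in PBT/Control for 30 gene lists, with the number of tested entries behind each name and the number called at each bar. Dashed lines mark the 2.87% upregulated and 1.47% downregulated among all tested entries; the lipoxygenase and ZIM domain list and the ABA list extend farthest to the right, and the MATE and antenna lists to the left.

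Secreted defence proteins changed in both directions, more of them upward. Of 69 pathogenesis-related and antimicrobial entries, 9 were upregulated (13%) and 3 downregulated (4.35%), with a median of 0.12. Kept in every fit were 5 upregulated and 2 downregulated entries, and the upregulated count was 5 without PBT replicate 2 or 3 or Control replicate 2. A Bet v I family protein (LOC_Os12g36830), of the PR-10 class, had 110.0, 44.9 and 109 FPKM in PBT, against 16.99, 13.9 and 9.09 FPKM in Control (log2 fold change 2.56, SE 0.37, adjusted p = 0.00447). PBT replicate 2 was the lowest of its group but still above every control. With the thaumatin LOC_Os12g43390 and the family 17 glycosyl hydrolases LOC_Os04g33640 and LOC_Os01g51570 given above, it was among the largest rises. The SCP-like extracellular protein LOC_Os07g03710 had 19.4, 23.9 and 22.6 FPKM in PBT, against 0, 1.78 and 8.41 FPKM in Control and its call was lost without PBT replicate 1, 2 or 3, GAT replicate 1, 2 or 3 or Control replicate 1 or 2 (adjusted p = 0.0507 to 0.115). On the downregulated side, the Bowman-Birk trypsin inhibitor BBTI2 (LOC_Os01g03320), which blocks digestive proteases, had 2.35, 4.44 and 3.02 FPKM in PBT, against 13.03, 26.1 and 16.4 FPKM in Control (log2 fold change -2.17, SE 0.27, adjusted p = 0.00252). A second thaumatin, LOC_Os09g36580, went the other way from LOC_Os12g43390: it had 5.45, 5.92 and 4.403 FPKM in PBT, against 12.7, 12.9 and 13.8 FPKM in Control, with a call lost without PBT replicate 1 or 3 or Control replicate 1, 2 or 3 (adjusted p = 0.0516 to 0.0662).

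More entries for cell-surface and intracellular receptors of defence lay above than below the controls, while few were DEGs. Wall-associated kinases, which span from the cell wall to the cytoplasm, had 3 of 26 upregulated (11.5%), 0 downregulated and a median of 0.47. Of these 26, 13 lay entirely above and 0 entirely below the controls, beside 12.9% and 13.4% of all entries. At an unadjusted p under 0.05, which 19.8% of all entries had, 7 were higher and 0 lower. OsWAK111 (LOC_Os10g10030) had 2.44, 1.14 and 2.12 FPKM in PBT, and was listed at 0 in all 3 control libraries (adjusted p = 0.0182), and LOC_Os04g30250 had 1.55, 2.05 and 1.75 FPKM in PBT, and was listed at 0 in all 3 control libraries (adjusted p = 0.0122). OsWAK92 (LOC_Os09g38910) had 6.02, 4.08 and 4.01 FPKM in PBT, against 0.454, 1.31 and 1.02 FPKM in Control and its call was lost without PBT replicate 1 (adjusted p = 0.0532). All 3 were low or undetected in control libraries. Of 56 NB-ARC immune receptor genes, 4 were upregulated and 1 downregulated (7.14% and 1.79%, beside 2.87% and 1.47% of all entries). The upregulated count of these genes was 1 without PBT replicate 3 and 2 without PBT replicate 1 or 2 or Control replicate 2. Their median was 0.30, 17 lay entirely above and 4 entirely below the controls, and 12 were higher and 3 lower at an unadjusted p under 0.05. RPM1-like LOC_Os11g12330 had 11.4, 9.15 and 10.5 FPKM in PBT, against 2.09, 2.79 and 3.32 FPKM in Control (log2 fold change 1.61, SE 0.22, adjusted p = 0.00387), the upregulated one kept in every fit, and LOC_Os11g12000, a downregulated NBS-LRR gene, had 0.161, 0.202 and 0 FPKM in PBT, against 3.74, 2.66 and 2.11 FPKM in Control (log2 fold change -1.76, SE 0.27, adjusted p = 0.00672). Calcium sensors and kinases had 3 of 79 upregulated and 4 downregulated (3.80% and 5.06%, beside 2.87% and 1.47% of all entries). The calcium/calmodulin-dependent kinase LOC_Os02g34600 had 40.3, 45.6 and 42.7 FPKM in PBT, against 14.01, 14.1 and 13.9 FPKM in Control (log2 fold change 1.55, SE 0.12, adjusted p = 0.000231), and the SNF1-like kinase LOC_Os05g26820 had 0.795, 0.727 and 1.27 FPKM in PBT, against 5.32, 5.81 and 6.24 FPKM in Control (log2 fold change -1.82, SE 0.24, adjusted p = 0.00334). The downregulated count of that list was 1 without Control replicate 3 and 2 without PBT replicate 2 or 3.

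Chalcone synthase entries and a flavanone 3-hydroxylase entry rose. Chalcone synthase makes the flavonoid skeleton, and flavanone 3-hydroxylase the next intermediate. The chalcone and stilbene synthase entry LOC_Os07g34260 had 12.03, 12.2 and 15.02 FPKM in PBT, against 0.935, 0.684 and 1.01 FPKM in Control (log2 fold change 2.90, SE 0.32, adjusted p = 0.00139). The flavonol synthase/flavanone 3-hydroxylase entry LOC_Os03g03034 had 136, 145 and 149 FPKM in PBT, against 34.1, 39.1 and 30.5 FPKM in Control (log2 fold change 2.03, SE 0.32, adjusted p = 0.00728). Both were well above the controls in every PBT library and were called with any library left out. A second chalcone and stilbene synthase, LOC_Os07g34190, had 3.11, 1.37 and 2.26 FPKM in PBT, and was listed at 0 in all 3 control libraries, a call lost without PBT replicate 1 or 3 (adjusted p = 0.0549 to 0.0562). In all, 3 of 63 phenylpropanoid and flavonoid enzymes were upregulated and 1 downregulated (4.76% and 1.59%, beside 2.87% and 1.47% of all entries). The downregulated one was the anthocyanidin glucosyltransferase LOC_Os06g18670, and 2 were downregulated without Control replicate 3. The median was -0.06, with 31 entries above and 32 below 0. KEGG flavonoid biosynthesis had 4 of 35 upregulated (11.4%) and 2 downregulated, the downregulated count being 0 without PBT replicate 1 or Control replicate 1, 2 or 3 and 1 without PBT replicate 2 or 3 or GAT replicate 3. An AMP-binding domain gene of KEGG phenylpropanoid biosynthesis (LOC_Os03g03790) had 5.84, 5.86 and 7.15 FPKM in PBT, against 0.823, 0.980 and 0.999 FPKM in Control (log2 fold change 1.91, SE 0.26, adjusted p = 0.00339), and an NAD dependent epimerase/dehydratase gene (LOC_Os07g40690) had 9.603, 12.2 and 8.58 FPKM in PBT, against 1.71, 1.24 and 1.22 FPKM in Control (log2 fold change 2.21, SE 0.31, adjusted p = 0.00392).

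Cytochrome P450 genes, the enzyme family that includes the target of paclobutrazol, had 8 of 94 upregulated (8.51%) and 5 downregulated (5.32%) with a median of 0.04. Besides the leading genes, LOC_Os12g25660 had 5.304, 5.29 and 6.06 FPKM in PBT, against 0.0152, 0 and 0 FPKM in Control (log2 fold change 2.70, SE 0.20, adjusted p = 0.000208), LOC_Os02g26810 had 5.901, 5.02 and 4.35 FPKM in PBT, against 0.509, 0.836 and 1.47 FPKM in Control (log2 fold change 1.67, SE 0.23, adjusted p = 0.00385) and LOC_Os01g12760 had 4.33, 5.096 and 2.98 FPKM in PBT, against 15.1, 16.1 and 14.1 FPKM in Control (log2 fold change -1.67, SE 0.21, adjusted p = 0.00247). These calls held in every fit, while the list counts were 5 without PBT replicate 1 or 2 for upregulation and 3 without PBT replicate 1 or Control replicate 2 for downregulation. Class III peroxidases, secreted enzymes that oxidise wall phenolics, had 3 of 37 upregulated and 1 downregulated (8.11% and 2.70%, beside 2.87% and 1.47% of all entries). LOC_Os02g14430 had 57.98, 54.1 and 48.5 FPKM in PBT, against 19.7, 11.9 and 14.4 FPKM in Control (log2 fold change 1.76, SE 0.19, adjusted p = 0.00115), and LOC_Os01g73200 had 11.9, 13.5 and 12.1 FPKM in PBT, against 4.598, 3.65 and 4.83 FPKM in Control (log2 fold change 1.34, SE 0.17, adjusted p = 0.00253). The downregulated count of that list was 0 without PBT replicate 2 or 3 or Control replicate 2 and 2 without Control replicate 1. The downregulated one, LOC_Os07g48040, was lost without PBT replicate 2 or 3 or Control replicate 1 or 2 (adjusted p = 0.0581 to 0.0823). Of 55 antioxidant enzyme genes limma called 0 as DEGs. At an unadjusted p under 0.05, which 19.8% of all entries had, 3 were higher and 9 lower. The upregulated count was 1 without Control replicate 2, and the downregulated count 2 without PBT replicate 2 or Control replicate 3. A catalase (LOC_Os03g03910) and a peroxiredoxin (LOC_Os02g33450), named after their values were seen, were below the adjusted p of 0.05 and lower within the fold limit (log2 fold changes -0.45 and -0.64, adjusted p = 0.00437 and 0.00267).

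Cell wall genes changed in both directions. Pectinesterases remove methyl groups from pectin, and inhibitor proteins hold them back. The pectinesterase LOC_Os01g20980 had 4.81, 4.88 and 5.74 FPKM in PBT, against 0.434, 1.02 and 0 FPKM in Control (log2 fold change 2.10, SE 0.35, adjusted p = 0.00968), and LOC_Os08g34900 had 3.49, 2.59 and 2.92 FPKM in PBT, and was listed at 0 in all 3 control libraries (adjusted p = 0.0108). A pectinesterase inhibitor gene (LOC_Os03g01020) had 92.3, 109 and 91.5 FPKM in PBT, against 301, 272 and 291 FPKM in Control (log2 fold change -1.55, SE 0.11, adjusted p = 0.000131). These pectinesterases were higher and this inhibitor gene lower in every PBT library, and the 3 calls held in every fit. The pectin list as a whole had 3 of 33 upregulated and 1 downregulated (9.09% and 3.03%, beside 2.87% and 1.47% of all entries), with a median of 0.12. In it 6 entries lay entirely above and 7 entirely below the controls, beside 12.9% and 13.4% of all entries. UDP-glucose 6-dehydrogenase (LOC_Os03g55070), which supplies UDP-glucuronate for wall polysaccharides, had 106, 111 and 113 FPKM in PBT, against 37.97, 37.1 and 37.9 FPKM in Control (log2 fold change 1.52, SE 0.10, adjusted p = 0.000109). Among 24 expansin and xyloglucan genes, which loosen the wall during elongation, limma called 0 upregulated and 1 downregulated (4.17%, beside 1.47% of all entries). The downregulated one was a glycosyl hydrolase of family 16 (LOC_Os11g33270). It had 4.699, 6.21 and 3.31 FPKM in PBT, against 10.98, 15.6 and 15.2 FPKM in Control (log2 fold change -1.40, SE 0.24, adjusted p = 0.0113). CESA6 (LOC_Os07g14850), a cellulose synthase, was upregulated (log2 fold change 1.07, SE 0.18, adjusted p = 0.0107) but its call was lost without PBT replicate 1 (adjusted p = 0.0356).

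Lipid transfer proteins, which carry lipids to the outer wall and cuticle, had 4 of 40 upregulated (10.0%) and 0 downregulated. LTPL116 (LOC_Os03g01320) had 49.5, 60.6 and 56.4 FPKM in PBT, against 7.06, 6.13 and 12.9 FPKM in Control (log2 fold change 2.60, SE 0.27, adjusted p = 0.00102), and LTPL25 (LOC_Os11g02350) had 3.13, 5.35 and 4.65 FPKM in PBT, and was listed at 0 in all 3 control libraries (adjusted p = 0.00270). LTPL114 (LOC_Os03g01300) and LTPL26 (LOC_Os12g02300) were lost without PBT replicate 2 or 3 or Control replicate 1 or 2 (adjusted p = 0.0588 to 0.0808) and without PBT replicate 1, 2 or 3, GAT replicate 2 or 3 or Control replicate 1 or 3 (adjusted p = 0.0600 to 0.110). The count of upregulated entries was 2 without PBT replicate 2 or 3 or Control replicate 1, and that of downregulated entries 1 without GAT replicate 1. A GDSL-like lipase (LOC_Os06g34120) had 24.1, 27.9 and 22.9 FPKM in PBT, against 5.55, 7.75 and 9.38 FPKM in Control (log2 fold change 1.62, SE 0.20, adjusted p = 0.00245), the 1 DEG of 18 such genes, with a second called without PBT replicate 1, GAT replicate 1 or Control replicate 1.

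Several nutrient carriers rose. Of 88 nitrogen, phosphate and amino acid transport entries, 8 were upregulated (9.09%) and 2 downregulated, with a median of 0.01, and 5 of the rises were kept in every fit. The downregulated count was 1 without PBT replicate 2 or Control replicate 2. An inorganic phosphate transporter (LOC_Os10g30790) had 178, 178 and 184 FPKM in PBT, against 49.8, 46.8 and 42.7 FPKM in Control (log2 fold change 1.93, SE 0.10, adjusted p = 4.58e-05). An amino acid transporter (LOC_Os08g03350) had 70.4, 117 and 125 FPKM in PBT, against 20.3, 24.4 and 24.6 FPKM in Control (log2 fold change 2.09, SE 0.30, adjusted p = 0.00488). The phosphate transporter was nearly equal within each group, and PBT replicate 1 was the lowest of the amino acid transporter values but above all controls. A sulfate transporter (LOC_Os03g06520) had 231, 228 and 226 FPKM in PBT, against 93.9, 83.2 and 109 FPKM in Control (log2 fold change 1.26, SE 0.11, adjusted p = 0.000485). On the other side, the peptide transporter PTR2 (LOC_Os10g02340) had 2.22, 3.08 and 2.52 FPKM in PBT, against 7.68, 9.09 and 7.07 FPKM in Control (log2 fold change -1.31, SE 0.20, adjusted p = 0.00663), and nitrite reductase (LOC_Os01g25484), which reduces nitrite to ammonium in the plastid, had 28.5, 24.6 and 27.7 FPKM in PBT, against 53.9, 58.7 and 52.6 FPKM in Control, a call lost without PBT replicate 2 or Control replicate 2 (adjusted p = 0.00638 to 0.0107). A heavy metal associated domain gene (LOC_Os04g39010) had 5.69, 5.92 and 5.98 FPKM in PBT, and was listed at 0 in all 3 control libraries (adjusted p = 0.000360).

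Some efflux carriers and water channels were lower. MATE efflux carriers had 3 of 15 downregulated (20%) and 0 upregulated; the downregulated count was 1 without PBT replicate 1 or 2 or Control replicate 2 or 3. LOC_Os11g03484 had 5.97, 4.198 and 3.702 FPKM in PBT, against 18.3, 13.5 and 22.01 FPKM in Control (log2 fold change -1.75, SE 0.24, adjusted p = 0.00365) and was kept in every fit. A pleiotropic drug resistance protein of the ABC class (LOC_Os01g42410) went the opposite way and had 10.4, 9.61 and 6.99 FPKM in PBT, against 0.703, 1.21 and 1.83 FPKM in Control (log2 fold change 2.17, SE 0.26, adjusted p = 0.00214). Of 17 aquaporins 0 were DEGs by limma, or 1 upregulated without GAT replicate 1, and the median was -0.30. At an unadjusted p under 0.05, which 19.8% of all entries had, 1 was higher and 5 lower. LOC_Os03g05290, LOC_Os06g22960 and LOC_Os01g13120, named after their values were seen, were lower within the fold limit, with log2 fold changes of -0.37, -0.65 and -0.80 (adjusted p = 0.0117, 0.00164 and 0.0191).

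Ribosomal proteins, 222 entries in all, had a median of -0.28, with 75 entries entirely below and 5 entirely above the controls (33.8% and 2.25%, beside 13.4% and 12.9% of all entries). At an adjusted p under 0.05, 12 were lower, by log2 fold changes of -1.16 to -0.39, and 2 higher. The larger of 2 downregulated ones, LOC_Os03g34040, had 48.6, 76.1 and 78.9 FPKM in PBT, against 152, 153 and 145 FPKM in Control, a call lost without PBT replicate 1 (adjusted p = 0.00608), and the other, LOC_Os11g34940, was lost without PBT replicate 1, 2 or 3, GAT replicate 2 or 3 or Control replicate 1, 2 or 3 (adjusted p = 0.0582 to 0.150). The 48 cell cycle genes had 0 DEGs by limma with all libraries. At an unadjusted p under 0.05, which 19.8% of all entries had, 3 were higher and 3 lower. They had 1 upregulated without GAT replicate 1, GAT replicate 3 or Control replicate 3 or 1 downregulated without Control replicate 1. Their median was 0.04, and they summed to 322 to 366 FPKM in PBT and 302 to 349 FPKM in control libraries. Among 369 proteases and ubiquitin ligases, 11 were upregulated and 3 downregulated (2.98% and 0.813%), shares near those of all entries, with 3 and 0 of them kept in every fit. The upregulated count was 6 without PBT replicate 2 or 3 and 7 without PBT replicate 1, and the downregulated count 0 without Control replicate 1 and 1 without PBT replicate 2 or 3, GAT replicate 2 or Control replicate 3.

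By annotation, 2.60% of the 2421 KEGG-annotated entries were upregulated and 1.78% downregulated. Among 165 pathways with at least 10 tested entries, the largest shares of upregulated members were in alpha-linolenic acid metabolism (5 of 21, 23.8%), in carotenoid biosynthesis (3 of 15, 20%), amino sugar and nucleotide sugar metabolism (6 of 42, 14.3%), pentose and glucuronate interconversions (4 of 29, 13.8%) and plant circadian rhythm (5 of 37, 13.5%). The circadian pathway members included the chalcone synthases LOC_Os07g34260 and LOC_Os07g34190 and the ethylene-responsive gene LOC_Os04g41570, and the amino sugar pathway included the UDP-glucose 6-dehydrogenase LOC_Os03g55070. A separate list of 8 clock loci had 0 DEGs by limma, with all libraries and with any left out. At an unadjusted p under 0.05, which 19.8% of all entries had, 0 were higher and 1 lower. The largest downregulated shares were in fatty acid biosynthesis (2 of 19, 10.5%), antenna proteins (1 of 10, 10.00%), steroid hormone biosynthesis (1 of 11, 9.09%), cyanoamino acid metabolism (2 of 23, 8.696%) and glucosinolate biosynthesis (1 of 13, 7.69%). The fatty acid members were a FabA-like gene (LOC_Os08g12840) and a chloroplast enoyl-acyl carrier protein reductase (LOC_Os08g23810), and KEGG names some of these pathways after other organisms. Glucosinolate biosynthesis shared its place with retinol metabolism (1 of 13) and tryptophan metabolism (3 of 39) and was taken by alphabetical order. Genes named in these terms and in no list were chosen by the term, after their values were seen.

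Of the 6307 GO-annotated entries, 3.31% were upregulated and 1.35% downregulated. Among 349 GO terms with at least 10 tested entries, those with the largest upregulated shares were oxylipin biosynthetic process (4 of 15, 26.7%), response to biotic stimulus (4 of 15, 26.7%), flavonoid biosynthetic process (5 of 20, 25.00%), response to gibberellin stimulus (3 of 13, 23.1%) and chitin catabolic process (3 of 14, 21.4%), tied with chitinase activity. The upregulated members of the gibberellin term were WRKY39 (LOC_Os02g16540), the myb-like gene LOC_Os05g07010 and the MYB gene LOC_Os09g01960, and those of the chitin term included the chitinases CHIT1 (LOC_Os02g39330) and CHIT14 (LOC_Os10g39680). The largest downregulated shares were in plant-type vacuole membrane (3 of 11, 27.3%), drug transmembrane transporter activity (3 of 15, 20%), innate immune response (2 of 12, 16.7%), endomembrane system (2 of 16, 12.5%) and beta-glucosidase activity (1 of 10, 10.00%). The last place was shared by 8 terms, among them flavonoid biosynthetic process and peroxisome (2 of 20 each) and photosynthesis, light harvesting (1 of 10), and was given by alphabetical order. The MATE carriers LOC_Os03g08900 and LOC_Os08g44870 were in the vacuole term. These shares rest on 1 to 6 called entries each and were given no test.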

How the data were processed

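The 9 libraries, from leaves of submerged IR64 seedlings, were made by poly(A) RNA sequencing with paired Illumina reads. The authors removed adaptor and low-quality reads, aligned reads to the rice pseudomolecules (Tophat) and estimated expression (Cufflinks) per the methods of the study, while the submitters' processing notes name Bowtie 0.12.2 and IRGSP-1.0. The deposited series table gives FPKM per entry, normalized for length and library size. Some entries carry an assembly number beside or in place of a locus name; the program behind these is not given in the sources used here. How fragments matching several loci were divided and whether strand was used are not given in the sources used here, and 8416 entries share a locus name with another (4450 of those tested). Read depth is not in the files, so no counting error is given. Of the 9 tables of single libraries, 4 carry the header of another library, and none was used.

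Entries reaching a mean of 0.5 FPKM were tested on log2(FPKM + 1) with limma 3.58.1 in R 4.3.3, with 3 group means over 9 libraries, a variance trend and Benjamini-Hochberg adjustment over all 22946 entries. The limits for a DEG were 0.05 on the adjusted p and 1 on the size of the log2 change. The fit was also run on simulated normal values. These held no single zeros beside high values, so the runs cannot show how the fit treats such entries. The text names the 12 described DEGs with the largest change in each direction whose groups do not overlap (leaving out entries with a single 0 beside values above 10 FPKM), all loci of the gibberellin and submergence lists, up to 4 DEGs per direction of each other list, and the 5 KEGG pathways and 5 GO terms with the largest share in each direction. Lists were defined by locus or by words of the description, 68 in all; 32 of their loci were not tested. Members and lists were chosen with earlier results of these data known. Alternatives were other pseudocounts, filters, scalings and limits, 6 libraries alone, a single 0 as missing, a replicate block and leaving out each library.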

Additional observations from a re-analysis of the deposited data

How the results depend on the processing

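With all 9 libraries, 996 DEGs were called in PBT/Control, 659 upregulated and 337 downregulated. With 1 library left out at a time there were 695 to 1013 DEGs (466 to 672 upregulated and 229 to 341 downregulated), lowest without PBT replicate 2 and highest without GAT replicate 1. Among the 11193 entries reaching a mean of 5 FPKM, 681 were DEGs (498 upregulated and 183 downregulated). With a single 0 treated as missing, 1486 were DEGs (905 upregulated and 581 downregulated). An adjusted p under 0.01 left 523 DEGs (366 upregulated and 157 downregulated), dropping the fold limit gave 1462 (896 higher and 566 lower), and the fold limit with 0.05 on the unadjusted p gave 2063 (1193 upregulated and 870 downregulated). Other pseudocounts, no filter, locus names only, quantile or median scaling, the PBT and control libraries alone and no variance trend gave 865 to 1013 DEGs. The upregulated share of the DEGs was 66.2%, and ranged over all settings from 57.8% with the unadjusted p to 73.1% at a mean of 5 FPKM or more. Of 148 named genes that were DEGs, 10 to 51 lost the call when 1 library was left out, and 24 in the fit of the 6 PBT and control libraries; in no alternative did a named DEG reverse.

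The deviations of PBT and control libraries of the same replicate number correlated at r = -0.021, -0.001 and -0.037 over all tested entries. No pairing by number was seen, but a block that acts on some genes only would not show in these values. The methods of the study describe a randomized complete block design of pots, and no source used here links the replicate numbers to blocks. With the replicate number as a block, 747 DEGs were called (514 upregulated and 233 downregulated), and 37 of the 148 named DEGs lost the call. No PBT library correlated best with the control library of its own number.

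The files hold FPKM without read counts, so the depth behind each value is unknown, counting error cannot be given, and the precision of low entries rests on 3 libraries per group.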
